A study of Homo sapiens with 6 samples.

Results

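This account describes 34 androgen receptor target genes, which are genes known to be controlled by androgen in prostate cells, in 22Rv1 cells with less ZMYND11. The genes were taken from a list of 35 names, of which ACP3 and ACPP are the same gene, and were matched by symbol to a matrix of 35322 genes. All 34 were in the matrix, and 31 of them were among the 16510 genes with enough counts to test. 22Rv1, a human line established from a prostate carcinoma, expresses the androgen receptor. RNA was sequenced in 6 libraries, with 2 libraries each of control cells, of the ZMYND11 knockdown labelled ZM11-kd1 (kd1 here) and of the knockdown labelled ZM11-kd2 (kd2 here). The study kept 22Rv1 cells in RPMI1640 with fetal bovine serum, and the labels give no treatment. No group was thus labelled as grown without androgens or with an inhibitor of the receptor, and the androgen content of the serum was not given. The study's methods describe lentiviral infection and puromycin selection for its hairpin lines. The labels give the control cells as WT and name no vector. The study's figure legend for RNA sequencing of 22Rv1 cells instead names stably expressed control short hairpin RNAs. Whether these control libraries carried one could not be settled. If they did not, infection and selection cannot be told apart from the knockdown. Which hairpin kd1 and kd2 each carried, and whether 2 libraries of a group came from separate cultures, were not given in the sources used here, so p-values measure the spread between these libraries, which may be technical.

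The androgen receptor is a nuclear hormone receptor that, once bound by testosterone or dihydrotestosterone, moves to the nucleus, binds DNA at androgen response elements and raises or lowers the transcription of nearby genes. In luminal prostate cells it drives secreted proteases such as prostate-specific antigen, and in prostate cancer it remains the main drug target. ZMYND11 is a reader of chromatin that binds a methylated histone tail in the bodies of transcribed genes and is known to restrain transcript elongation.

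ZMYND11 itself stood at 140.8 and 134.6 TMM-normalized counts per 1000000 counts (CPM) in the control libraries, at 27.7 and 26.1 CPM in kd1 and at 21.6 and 22.7 CPM in kd2. All knockdown libraries were below both controls, and the fall was 5.11-fold in kd1 and 6.22-fold in kd2. The kd1 log2 fold change of -2.35 was -1.66 with a correction for GC content and length. The libraries held 26844128 to 38193748 counts, and every library was most like the other library of its own group. The 2 libraries of kd2 differed most from each other. The chi-square of their counts per degree of freedom was 10.1, against 2.34 in control and 3.86 in kd1. The fit shared 1 estimate of the spread over the 3 groups, so p-values do not reflect this difference between groups. Of the markers of prostate luminal cells (KRT8, KRT18, HOXB13 and EPCAM) none was at 0 in any group, and their summed level was 775 to 782 CPM in control, 1487 to 1561 CPM in kd1 and 855 to 947 CPM in kd2. Markers of basal cells summed to at most 0.234 CPM and those of endothelial cells to at most 0.196 CPM. Those of fibroblasts summed to 26.0 to 28.2, 77.6 to 78.2 and 31.5 to 33.7 CPM in control, kd1 and kd2, those of neuroendocrine cells to 148 to 159, 176 to 184 and 134 to 152 CPM, and those of leukocytes to 0.723 to 1.22, 1.42 to 1.71 and 2.83 to 3.61 CPM. Members of a marker list did not all move together. COL1A1 rose to 74.8 and 74.2 CPM in kd1 and to 30.1 and 32.4 CPM in kd2 from 23.9 and 23.8 CPM and made up most of the fibroblast sum. COL1A2 also rose in both knockdowns, from 2 and 1 counts in control to 23 and 18 counts in each knockdown, while COL3A1, with 1 to 31 counts per library, fell by 2.53 and 3.04 on the log2 scale in kd1 and kd2 and DCN fell 3.76-fold in kd2. Of the neuroendocrine markers CHGA fell 6.82-fold and 4.69-fold and CHGB rose 1.65-fold and 1.30-fold. These 6 genes were chosen after their values were seen. The part of these levels in the results below was not tested, and in bulk RNA fewer cells of a type and less RNA per cell cannot be told apart.

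The target genes did not move as a block. In kd1, 15 of the 31 measured genes fell and 8 rose, at an adjusted p under 0.05 in the edgeR quasi-likelihood test. In kd2, 12 fell and 13 rose. Of all 16510 genes tested, 39.8% fell and 38.2% rose in kd1, and 36.9% fell and 36.5% rose in kd2, so changes were common in either direction in these libraries. With a fold change of at least 2 as well, 13 target genes fell and 3 rose in kd1, beside 22.9% and 19.1% of all genes. In kd2, 9 fell and 5 rose by at least 2-fold, beside 19.2% and 12.7% of all genes. The median log2 fold change of the 31 genes was -0.42 in kd1, where that of all genes was -0.029. In kd2 the median was -0.076 and that of all genes -0.028, and the sign of the kd2 median turned positive without control replicate 1 (0.097), without kd2 replicate 1 (0.20) and with a correction for GC content and length (0.001). With library totals as the only scaling, the median of all genes shifted by -0.36 in kd1 and -0.17 in kd2, rises made up 35.3% of all calls in kd1 in place of 49.0% and 40.8% in kd2 in place of 49.8%, and the target genes split into 22 lower and 5 higher in kd1 and 15 lower and 13 higher in kd2. Of all 16510 genes, 8420 were then lower and 4596 higher in kd1, and 7220 lower and 4967 higher in kd2.

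**Figure D1:**
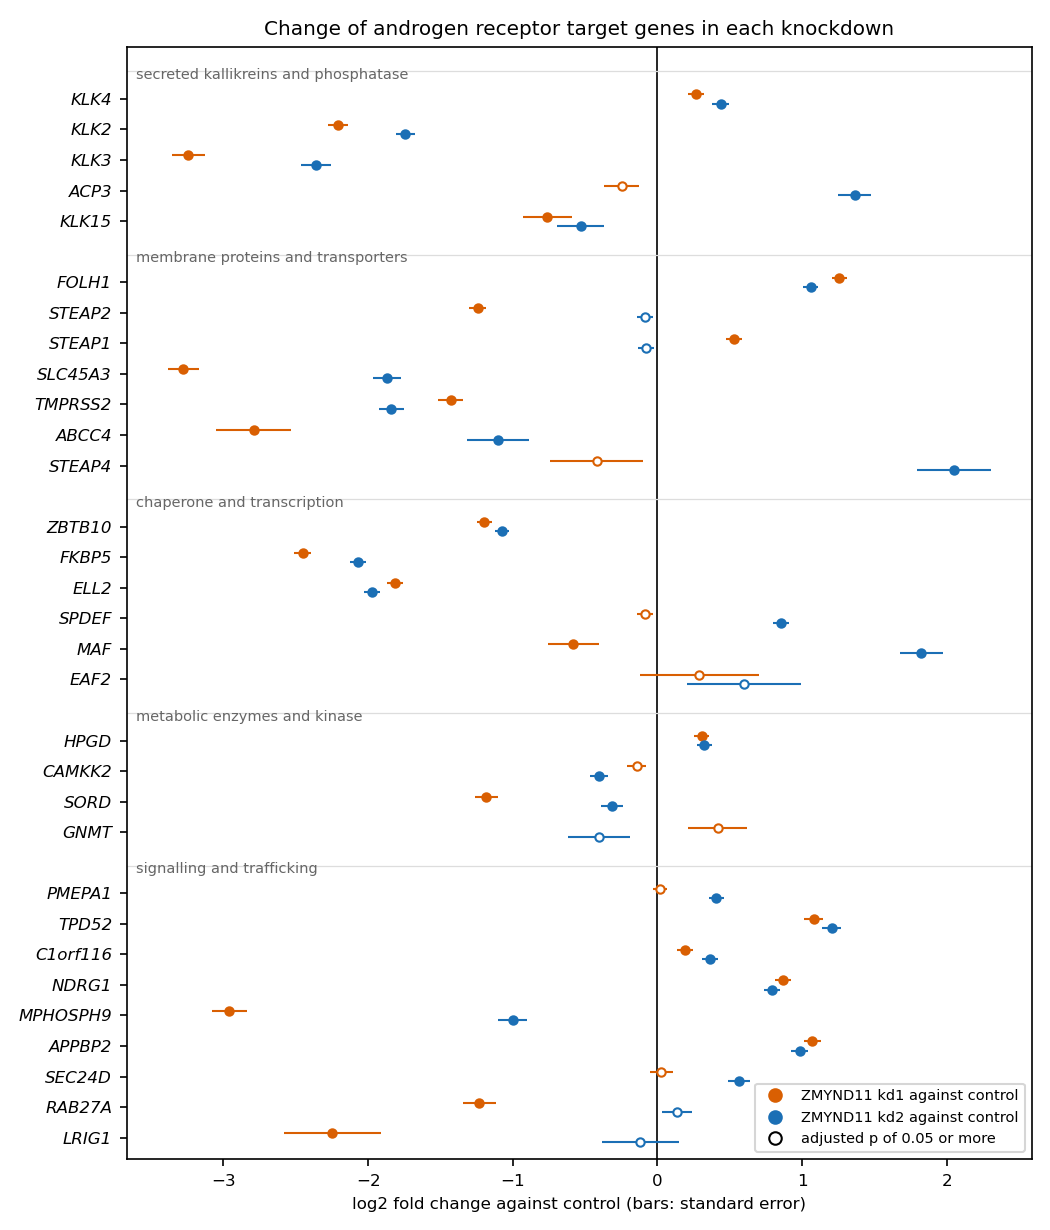
The horizontal axis is the log2 fold change against control in kd1 (orange) and kd2 (blue), with 1 row for each of the 31 measured target genes grouped by role. Bars are standard errors and open points have an adjusted p of 0.05 or more; the rows with both points far to the left include KLK3, KLK2, SLC45A3 and FKBP5, and FOLH1, TPD52 and APPBP2 have both points to the right.

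Both knockdowns were compared with the same 2 control libraries, so their calls are not independent of each other. The genes called lower in both were 11, namely KLK2, KLK3, KLK15, TMPRSS2, SLC45A3, ABCC4, FKBP5, ELL2, ZBTB10, SORD and MPHOSPH9, beside 27.0% of all genes tested. The genes called higher in both were 7, namely KLK4, FOLH1, HPGD, NDRG1, C1orf116, TPD52 and APPBP2, beside 25.6% of all genes. One gene, MAF, was called lower in kd1 and higher in kd2, as were 4.73% of all genes, and 0 target genes were called higher in kd1 and lower in kd2, beside 4.37% of all genes. Another 2 genes, EAF2 and GNMT, were called in neither, as were 10.3%. The other 10 were called in 1 knockdown, beside 28.0% of all genes, with STEAP2, LRIG1 and RAB27A lower and STEAP1 higher in kd1, CAMKK2 lower in kd2, and ACP3, STEAP4, SPDEF, PMEPA1 and SEC24D higher in kd2.

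**Figure D2:**
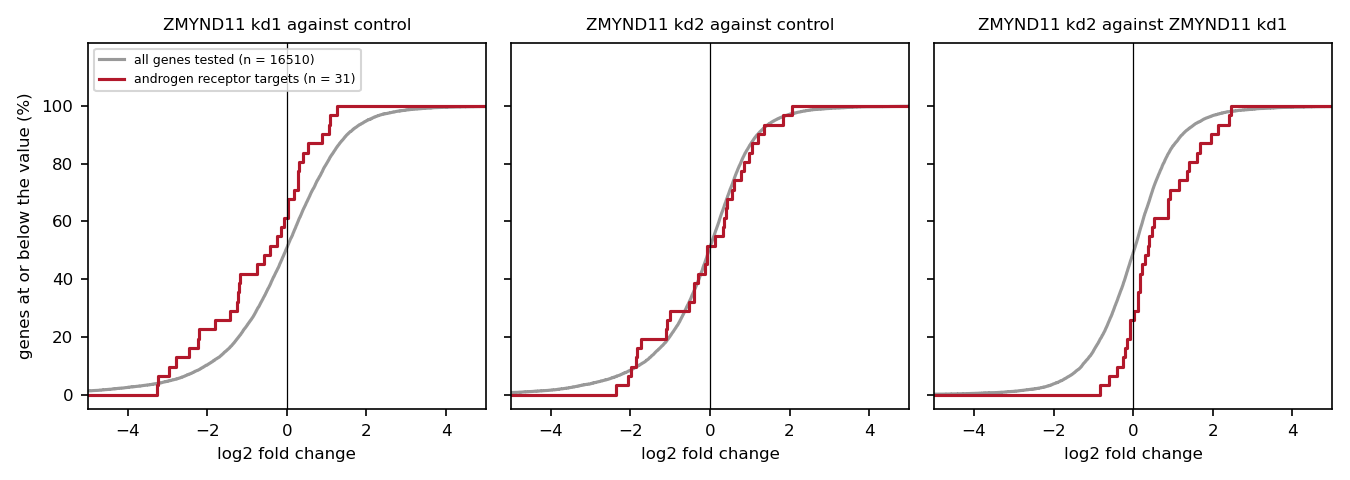
Each panel plots the percentage of genes at or below a log2 fold change, for the 31 measured target genes (red steps) and all 16510 genes tested (grey curve). The red line lies above the grey one over most of the range below 0 in kd1, close to it in kd2, and below it over most of the range in the comparison of kd2 with kd1.

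Among the secreted proteins, the kallikreins KLK2 and KLK3 fell strongly in both knockdowns, whereas their neighbour KLK4 rose slightly and the acid phosphatase gene ACP3 rose only in the kd2 comparison. KLK3, which encodes prostate-specific antigen, stood at 40.6 and 39.2 CPM in control, 4.33 and 4.09 CPM in kd1 and 7.11 and 8.47 CPM in kd2. Both knockdowns lay far below the controls, and kd1 lay below kd2. The fall was 9.46-fold in kd1 (log2 fold change -3.24, SE 0.114, edgeR adjusted p = 4.25e-12) and 5.12-fold in kd2 (-2.36, SE 0.103, edgeR adjusted p = 6.8e-11). KLK2, which encodes a trypsin-like protease that can activate prostate-specific antigen, stood at 94.9 and 91.9 CPM in control, 20.2 and 20.3 CPM in kd1 and 27.3 and 28.6 CPM in kd2. Its 3 groups were likewise fully separated, and the fall was 4.62-fold in kd1 (edgeR adjusted p = 1.35e-12) and 3.35-fold in kd2 (edgeR adjusted p = 1.46e-11). KLK15, another secreted kallikrein, was a low transcript at 6.44 and 7.57 CPM in control, 4.33 and 3.92 CPM in kd1 and 5.35 and 4.35 CPM in kd2. It fell 1.70-fold and 1.44-fold, and the kd2 call was lost without control replicate 2 (log2 fold change -0.41) or without kd2 replicate 2 (-0.38).

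KLK4, a kallikrein with a role in enamel formation as well as in prostate, went the other way. It stood at 170.4 and 166 CPM in control, 211 and 193 CPM in kd1 and 224 and 231 CPM in kd2, with every knockdown library above both controls. The rise was 1.20-fold in kd1 (edgeR adjusted p = 0.000582) and 1.35-fold in kd2 (edgeR adjusted p = 6.76e-06), and the kd1 value turned to -0.087 on the log2 scale with library totals alone and to -0.65 with the correction for GC content and length, where KLK4 was called lower (edgeR adjusted p = 1.08e-07). The kd2 log2 fold change of 0.44 was 0.27 and 0.20 in the same settings. ACP3, which encodes prostatic acid phosphatase, stood at 14.5 and 11.98 CPM in control, 12.3 and 9.90 CPM in kd1 and 32.9 and 35.2 CPM in kd2. The control and kd1 ranges overlapped, while kd2 was above all other libraries by a wide margin. Its log2 fold change was -0.25 in kd1 (edgeR adjusted p = 0.081) and 1.37 in kd2, a 2.58-fold rise (SE 0.114, edgeR adjusted p = 6.05e-08). In kd1 ACP3 passed the threshold as lower when control replicate 2, kd1 replicate 1 or either kd2 library was left out, with log2 fold changes from -0.42 to -0.24, and also with library totals alone (-0.60), with no filter (-0.25) and with at least 10 counts in every library (-0.29).

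The 4 kallikrein genes lie together on chromosome 19 (GRCh38, GENCODE 44), in the order KLK15 (50825289 to 50837213, minus strand), KLK3 (50854915 to 50860764, plus strand), KLK2 (50861568 to 50880567, plus strand) and KLK4 (50906351 to 50911395, minus strand). The full androgen response element is usually written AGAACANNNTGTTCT, a pair of inverted AGAACA half-sites with 3 free bases between them, and it was searched for on both strands in windows of 250 bases before to 50 bases after each RefSeq gene start (GRCh38.p14). The bases before the RefSeq starts of KLK3 and KLK2 are printed because these neighbouring paralogs fell together, and the best match to the full element is in capitals in each.
KLK3: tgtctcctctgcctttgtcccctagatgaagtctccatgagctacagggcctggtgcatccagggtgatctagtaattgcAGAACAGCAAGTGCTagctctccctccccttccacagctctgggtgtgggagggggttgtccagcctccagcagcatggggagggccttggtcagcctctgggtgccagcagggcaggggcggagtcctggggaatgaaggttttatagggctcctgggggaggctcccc
KLK2: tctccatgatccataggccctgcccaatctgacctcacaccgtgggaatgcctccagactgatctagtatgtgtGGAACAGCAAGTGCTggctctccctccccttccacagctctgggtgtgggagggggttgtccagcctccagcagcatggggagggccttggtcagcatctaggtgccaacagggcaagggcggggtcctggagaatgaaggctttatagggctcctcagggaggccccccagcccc
The KLK3 run is chr19:50854665-50854914 and the KLK2 run is chr19:50873189-50873438, both on the plus strand. The RefSeq start used for KLK2 is the base after its run and lies inside the GENCODE 44 model of the gene, which begins further upstream. The capitals in KLK3 start at position -170 from the gene start (chr19:50854745-50854759) and match 10 of the 12 fixed bases, and those in KLK2 start at -176 from that RefSeq start (chr19:50873263-50873277) and match 9 of 12. A match to 10 or more was held by 1.41% of all 35116 windows and a match to 9 or more by 10.8%. The 26 target genes with a window had 47 windows between them. Of these 47, 2 held a match to 10 or more, namely 1 each of KLK3 and PMEPA1 (tgaagaatgtgttct, at chr20:57710801-57710815, minus strand, position -238 of that window), and 9 held a match to 9 or more. The half-site AGAACA, or TGTTCT on the other strand, was held in 6 of the 47 windows and in 14.8% of all windows, and every full match also counts among the half-sites where 1 of its arms is whole. These matches describe letters in short windows, and androgen-responsive enhancers are known to lie far outside them.

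**Figure D3:**
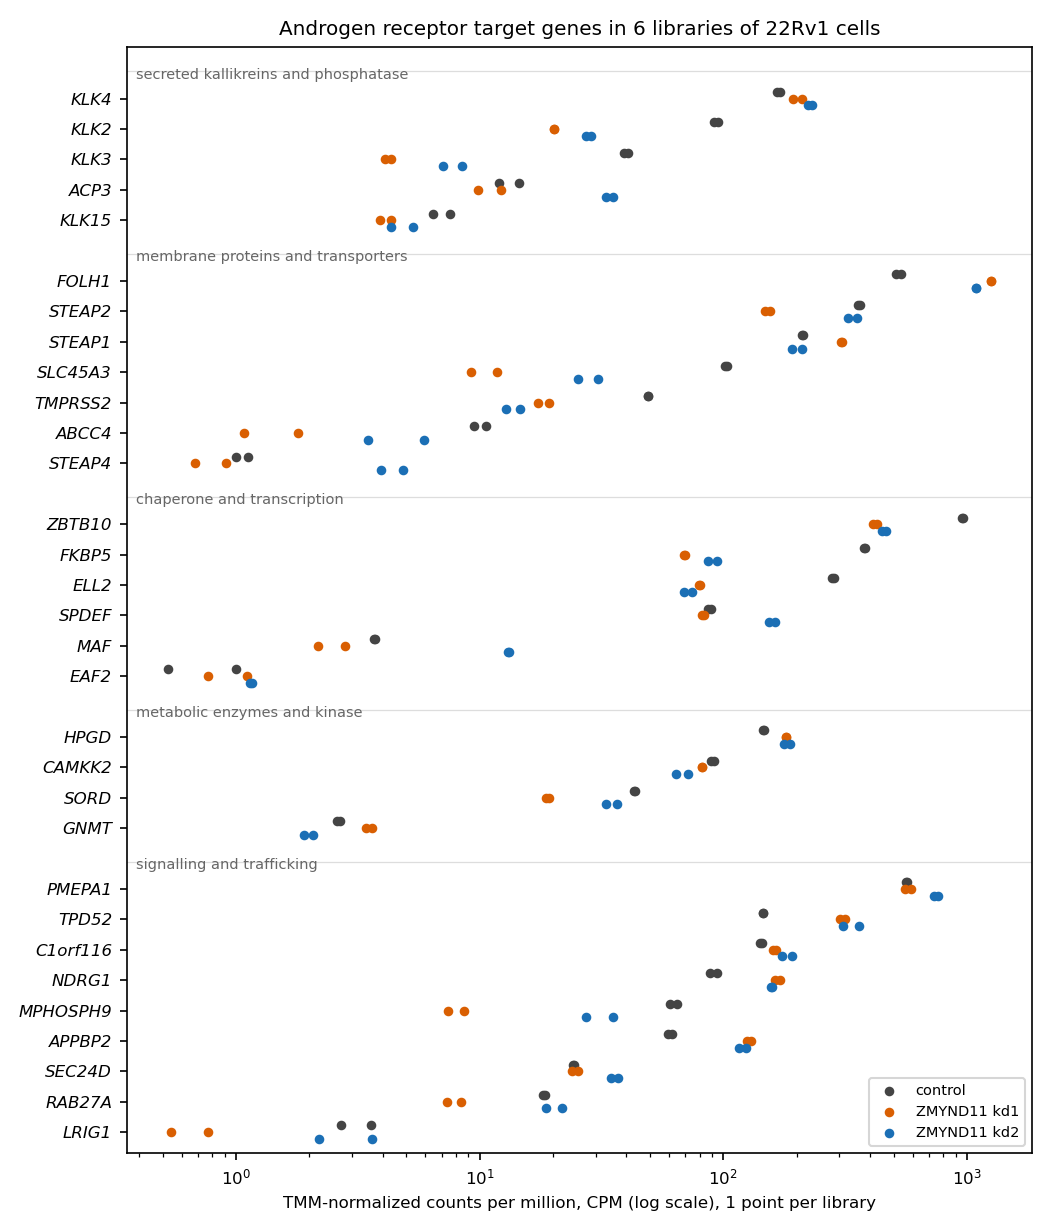
Each point is 1 library, and the horizontal axis gives TMM-normalized CPM on a log scale for the 31 measured target genes, grouped by role. Control libraries are dark grey, kd1 orange and kd2 blue; the KLK3 points run from 4.09 to 40.6 CPM and the FOLH1 points from 509.9 to 1254 CPM.

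Among the membrane proteins and transporters, SLC45A3, TMPRSS2 and ABCC4 fell in both knockdowns and FOLH1 rose in both. The 3 measured STEAP genes, which encode a family of membrane proteins, each showed another pattern. SLC45A3, the gene of the prostate marker prostein, stood at 101 and 103 CPM in control, 11.7 and 9.26 CPM in kd1 and 25.3 and 30.7 CPM in kd2. The groups did not overlap, and the fall was 9.69-fold in kd1 (log2 fold change -3.28, SE 0.107, edgeR adjusted p = 2.23e-12) and 3.65-fold in kd2 (-1.87, SE 0.096, edgeR adjusted p = 3.17e-10). TMPRSS2, a membrane-bound serine protease whose androgen-driven promoter is often fused to ERG in prostate tumours, stood at 49.3 CPM in both control libraries, 19.3 and 17.3 CPM in kd1 and 14.7 and 12.9 CPM in kd2. It fell 2.69-fold in kd1 (edgeR adjusted p = 1.25e-09) and 3.58-fold in kd2 (edgeR adjusted p = 1.82e-10). Here kd2 was the lower of the knockdowns, unlike for KLK3 and SLC45A3. ABCC4, an exporter of organic anions and cyclic nucleotides, stood at 9.53 and 10.7 CPM in control, 1.80 and 1.08 CPM in kd1 and 3.50 and 5.93 CPM in kd2. Both knockdowns lay below control, with falls of 6.92-fold (edgeR adjusted p = 1.46e-07) and 2.15-fold (edgeR adjusted p = 0.000357), although the 2 libraries of each knockdown were far apart.

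FOLH1, which encodes prostate-specific membrane antigen, is known as a gene that androgen lowers in many prostate cancer cells. It stood at 509.9 and 538 CPM in control, 1254 and 1253 CPM in kd1 and 1093 and 1090 CPM in kd2. It rose 2.39-fold in kd1 (log2 fold change 1.26, SE 0.050, edgeR adjusted p = 1.45e-11) and 2.08-fold in kd2 (1.06, SE 0.050, edgeR adjusted p = 1.48e-10). STEAP2 stood at 363 and 358 CPM in control, 155 and 149 CPM in kd1 and 324 and 354 CPM in kd2. It fell 2.37-fold in kd1 (edgeR adjusted p = 5.28e-11), with a log2 fold change of -1.24 that shrank to -0.69 with the correction for GC content and length. Its kd2 value of -0.087 on the log2 scale missed the threshold (edgeR adjusted p = 0.166), which it passed as lower without kd2 replicate 2 (-0.15), with library totals alone (-0.26) and with at least 10 counts in every library (-0.13). STEAP1 stood at 211 and 212 CPM in control, 305 and 306 CPM in kd1 and 211 and 191 CPM in kd2. It rose 1.44-fold in kd1 (edgeR adjusted p = 5.33e-07), a log2 fold change of 0.53 that shrank to 0.17 with library totals alone and to 0.12 with the correction for GC content and length. It was at -0.076 on the log2 scale in kd2 (edgeR adjusted p = 0.23), a value that passed as lower without kd2 replicate 1 (-0.15), with library totals alone (-0.25) and with the correction for GC content and length (-0.41). With that correction STEAP1 was thus called higher in kd1 and lower in kd2. STEAP4 was a low transcript, at 1.12 and 0.998 CPM in control, 0.677 and 0.912 CPM in kd1 and 3.95 and 4.85 CPM in kd2. Its rise in kd2 was 4.14-fold (log2 fold change 2.05, SE 0.254, edgeR adjusted p = 4.26e-06), and its kd1 value was -0.42 (edgeR adjusted p = 0.241), which passed as lower with library totals alone (-0.775) and turned to 0.25 with the correction for GC content and length. TRPM8, a cold-sensing calcium channel, had 0 to 3 counts per library and was not tested.

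Among the chaperone and transcription genes, FKBP5, ELL2 and ZBTB10 fell in both knockdowns, MAF moved in opposite directions, and SPDEF rose in kd2. FKBP5, a co-chaperone of steroid receptors that is among the most used readouts of receptor activity, stood at 379 and 380.4 CPM in control, 68.8 and 70.0 CPM in kd1 and 86.4 and 94.5 CPM in kd2. All 4 knockdown libraries lay below both controls, and the fall was 5.47-fold in kd1 (log2 fold change -2.45, SE 0.058, edgeR adjusted p = 1.17e-13) and 4.20-fold in kd2 (-2.07, SE 0.057, edgeR adjusted p = 8.01e-13), with the kd1 value at -1.84 after the correction for GC content and length. ELL2, a subunit of the super elongation complex, stood at 284 and 280.4 CPM in control, 80.6 and 79.9 CPM in kd1 and 69.1 and 74.5 CPM in kd2. It fell 3.52-fold and 3.93-fold. ZBTB10, a zinc finger protein, had the largest CPM of the falling members, at 966 and 956 CPM in control, 427 and 411 CPM in kd1 and 465 and 447 CPM in kd2. It fell 2.29-fold in kd1 (edgeR adjusted p = 2.56e-11) and 2.11-fold in kd2 (edgeR adjusted p = 1.34e-10), and its kd1 log2 fold change of -1.20 shrank to -0.58 with the correction for GC content and length.

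MAF, a basic leucine zipper transcription factor, stood at 3.71 and 3.70 CPM in control, 2.18 and 2.80 CPM in kd1 and 13.1 and 13.2 CPM in kd2. The kd1 libraries were below both controls and the kd2 libraries above them. The log2 fold change was -0.58 in kd1 (SE 0.178, edgeR adjusted p = 0.00829) and 1.82 in kd2 (SE 0.147, edgeR adjusted p = 4.37e-08), and the kd1 call was lost without kd1 replicate 1 (-0.40) and with the correction for GC content and length (-0.21), while library totals alone gave -0.94. SPDEF, an ETS factor of secretory epithelium, stood at 89.0 and 86.2 CPM in control, 81.6 and 83.6 CPM in kd1 and 162 and 154 CPM in kd2. It rose 1.81-fold in kd2 (edgeR adjusted p = 3.94e-09), and its kd1 value was -0.085 (edgeR adjusted p = 0.18). That value was called lower with the correction for GC content and length (-1.17), with library totals alone (-0.44) and with at least 10 counts in every library (-0.13). EAF2, a partner of the ELL elongation factors, had 0.526 to 1.17 CPM over all libraries and was called in neither knockdown.

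Of the 4 measured metabolic genes, 1 fell and 1 rose in kd1, and 2 fell and 1 rose in kd2, beside 39.8% lower and 38.2% higher of all genes in kd1 and 36.9% and 36.5% in kd2. SORD, which encodes sorbitol dehydrogenase, stood at 42.9 and 43.6 CPM in control, 19.3 and 18.7 CPM in kd1 and 33.0 and 36.7 CPM in kd2. It fell 2.27-fold in kd1 (edgeR adjusted p = 3.92e-09) and 1.24-fold in kd2 (edgeR adjusted p = 0.00184), and with the correction for GC content and length the kd1 log2 fold change of -1.18 shrank to -0.55. The kd2 value of -0.31 came to -0.012 on that scale with the same correction, where it was no longer called, and to -0.48 with library totals alone. HPGD, the enzyme that inactivates prostaglandins, stood at 145 to 148 CPM in control and at 178 to 189 CPM in the knockdowns, a rise of 1.24-fold and 1.25-fold that turned to -0.050 on the log2 scale in kd1 with library totals alone. The kd1 log2 fold change of 0.31 was 0.61 with the correction for GC content and length, and the kd2 value of 0.32 was 0.15 with library totals alone. CAMKK2, a kinase upstream of AMPK, stood at 91.5 and 88.8 CPM in control, 81.6 and 81.5 CPM in kd1 and 64.2 and 71.9 CPM in kd2. It fell 1.32-fold in kd2 (edgeR adjusted p = 4.55e-05), and its kd1 value of -0.14 stood at the threshold (edgeR adjusted p = 0.0508). It passed as lower with library totals alone (-0.50), with at least 10 counts in every library (-0.19), in the fit of only the groups compared (-0.14) and without either kd2 library (-0.14), and turned to 0.042 with the correction for GC content and length. GNMT, a glycine methyltransferase, ranged from 1.90 to 3.62 CPM with kd1 above and kd2 below the controls, and neither difference was called. With the correction for GC content and length it was called lower in both, at -0.50 in kd1 and -0.64 in kd2 on the log2 scale, and with library totals alone it was called lower in kd2 (-0.58). Its counts equalled those of the readthrough gene CNPY3-GNMT in every library, so its values are uncertain. ALDH1A3, a retinaldehyde dehydrogenase, had 5 or 6 counts in each library and was not tested.

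In the group of signalling and trafficking genes, 4 of the 9 measured rose in both knockdowns, beside 25.6% of all genes. TPD52, a vesicle trafficking protein, stood at 146 CPM in both control libraries, 300.1 and 316 CPM in kd1 and 361 and 312 CPM in kd2. It rose 2.11-fold in kd1 (edgeR adjusted p = 1.3e-09) and 2.31-fold in kd2 (edgeR adjusted p = 6.5e-10). APPBP2, a protein that binds the amyloid precursor protein, stood at 59.4 and 61.8 CPM in control, 129.6 and 125 CPM in kd1 and 115.7 and 124 CPM in kd2, rising 2.10-fold and 1.98-fold. NDRG1, a gene known to respond to hypoxia and stress as well as to androgen, stood at 88.5 and 94.4 CPM in control, 171 and 164 CPM in kd1 and 159 and 157 CPM in kd2, and rose 1.83-fold and 1.73-fold. For these 3 genes every knockdown library was above both controls, and the rise kept its sign with DESeq2's size factors, with library totals alone and with the correction for GC content and length. Its size moved, however, as the kd1 log2 fold change of APPBP2 (1.07) was 1.69 with that correction and that of NDRG1 (0.87) was 0.52 with library totals alone and 1.32 with the correction. C1orf116, an androgen-regulated gene of epithelial cells, rose 1.14-fold in kd1 (edgeR adjusted p = 0.00755) and 1.29-fold in kd2 (edgeR adjusted p = 4.69e-05). Its kd1 call was lost without control replicate 2 (log2 fold change 0.17) or without kd1 replicate 1 (0.18), and with library totals alone it was called lower (-0.17, edgeR adjusted p = 0.0221), while its kd2 value of 0.36 was 0.19.

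Of the 9 measured genes of this group, 3 fell and 4 rose in kd1, beside 39.8% and 38.2% of all genes. In kd2, 1 fell, which was MPHOSPH9, and 6 rose, beside 36.9% and 36.5%. MPHOSPH9, a phosphoprotein of centrioles and mitosis, stood at 60.5 and 64.9 CPM in control, 8.65 and 7.40 CPM in kd1 and 27.4 and 35.2 CPM in kd2. It fell 7.78-fold in kd1 (log2 fold change -2.96, SE 0.119, edgeR adjusted p = 1.57e-11) and 2.002-fold in kd2 (-1.002, SE 0.102, edgeR adjusted p = 5.41e-07), with the kd1 value at -2.34 after the correction for GC content and length. RAB27A, a small GTPase of secretory vesicles, stood at 18.6 and 18.3 CPM in control, 7.33 and 8.41 CPM in kd1 and 18.7 and 21.7 CPM in kd2. LRIG1, a feedback inhibitor of epidermal growth factor receptors, stood at 3.58 and 2.705 CPM in control, 0.765 and 0.540 CPM in kd1 and 2.18 and 3.62 CPM in kd2. RAB27A fell 2.35-fold (edgeR adjusted p = 1.53e-07) and LRIG1 4.75-fold (edgeR adjusted p = 2.38e-05) in kd1, and neither was called in kd2, with log2 fold changes of 0.13 and -0.12. The kd1 log2 fold change of RAB27A, -1.23, shrank to -0.54 with the correction for GC content and length, where its kd2 value of 0.28 was called higher, so that RAB27A was then called in opposite directions. PMEPA1, an inhibitor of TGF-beta signalling, and SEC24D, a coat protein of transport vesicles, rose 1.33-fold and 1.48-fold in kd2 (edgeR adjusted p = 4.96e-06 and 1.25e-05) and had log2 fold changes of 0.018 and 0.025 in kd1. With library totals alone both were called lower in kd1 (-0.34 and -0.33) and the kd2 value of PMEPA1 came to 0.24 from 0.41, and with the correction for GC content and length SEC24D was called higher there (0.58, edgeR adjusted p = 2.51e-06). HERC3, a ubiquitin ligase, had 0 counts in all libraries and was not tested. A second gene model of the same name shares 69.5% of its exon length on the same strand, and the part of this in the 0 was not tested.

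Per length, the target genes with the highest levels in control cells were STEAP1, PMEPA1, FOLH1 and ZBTB10, at 137, 98.6, 98.2 and 94.1 RPKM, which is CPM divided by the length of the annotated exons in kilobases. KLK4 stood at 83.9 RPKM, SPDEF at 45.8, STEAP2 at 41.3, ELL2 at 39.7 and FKBP5 at 35.7 RPKM. KLK2 stood at 14.7 RPKM and KLK3 at 8.60 RPKM, at the 71.9th percentile of all genes tested, and the lowest measured member was STEAP4 at 0.0940 RPKM. All 34 target genes took up 0.531% and 0.528% of the raw counts in the control libraries, 0.386% and 0.373% in kd1 and 0.464% and 0.479% in kd2. These shares are without TMM scaling and are not on the scale of the CPM above. The TMM factors were 1.134 and 1.124 in control, 0.890 and 0.876 in kd1 and 0.992 and 1.015 in kd2. With a higher factor in control, part of the lower shares in the knockdowns goes with the scaling.

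The knockdowns were then compared with each other. Of the 31 target genes, 19 were higher in kd2 than in kd1 and 6 were lower, beside 34.9% and 33.8% of all genes. By at least 2-fold, 9 were higher and 0 lower, beside 12.0% and 13.7% of all genes. The median log2 difference was 0.38, where that of all genes was 0.022. With library totals alone the median of all genes shifted by 0.18 in this comparison, the higher side made up 61.1% of all calls in place of 50.8%, and 22 target genes were higher and 3 lower. Of all genes, 7065 were then higher and 4506 lower. With the correction for GC content and length, 18 were higher and 10 lower, beside 5311 higher and 5830 lower of all 16510 genes, and the higher side made up 47.7% of all calls.

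The 9 genes with at least 2-fold more RNA in kd2 than in kd1 were STEAP4, MAF, LRIG1, MPHOSPH9, ABCC4, ACP3, SLC45A3, RAB27A and STEAP2. The difference was 5.55-fold for STEAP4 (log2 difference 2.47, SE 0.265, edgeR adjusted p = 1.12e-06), 5.30-fold for MAF, 4.38-fold for LRIG1 and 3.89-fold for MPHOSPH9. It was between 2.23-fold for STEAP2 and 3.22-fold for ABCC4 in the other 5. With the correction for GC content and length the log2 differences of STEAP2 (1.16) and RAB27A (1.36) shrank to 0.61 and 0.82, below a doubling, and those of SORD (0.87) and SEC24D (0.54) to 0.54 and 0.20, while that of SPDEF (0.94) grew to 1.79. For SLC45A3, ABCC4 and MPHOSPH9 the fall was thus deeper in kd1 than in kd2, with log2 differences of 1.41 (SE 0.112), 1.69 (SE 0.276) and 1.96 (SE 0.122). KLK3 and KLK2 were 1.85-fold and 1.38-fold higher in kd2 (edgeR adjusted p = 2.32e-05 and 4.03e-05). FKBP5 was 1.30-fold higher in kd2, a log2 difference of 0.38 that came to -0.031 with the correction for GC content and length. TMPRSS2, STEAP1, GNMT, CAMKK2, FOLH1 and ELL2 were lower in kd2 than in kd1. Their log2 differences ran from -0.82 for GNMT to -0.16 for ELL2, and that of ELL2 turned to 0.024 with library totals alone and lost its call in 5 of the 6 fits that left out 1 library. With the correction for GC content and length ELL2 and FOLH1 differed by more, at -0.60 and -0.48. The differences of FOLH1 and CAMKK2 were no longer called with library totals alone (-0.015 and -0.077), where that of TMPRSS2 came to -0.23 from -0.41, nor was that of GNMT with the correction for GC content and length (-0.14). ZBTB10, 1.09-fold higher in kd2 (edgeR adjusted p = 0.0453), lost its call in 5 of those 6 fits and turned to -0.34 with that correction. Differences that were not called were those of HPGD, TPD52, NDRG1, APPBP2, KLK15 and EAF2, with log2 values from -0.086 (SE 0.057) for APPBP2 to 0.31 (SE 0.382) for EAF2. With the correction for GC content and length, APPBP2, HPGD, NDRG1 and TPD52 were called lower in kd2 (from -0.59 to -0.24) and KLK15 higher (0.46). With library totals alone HPGD (0.20), TPD52 (0.31) and KLK15 (0.415) were called higher. Of the differences called higher, C1orf116 (0.17) lost its call without either kd1 library or kd2 replicate 2, and KLK4 (0.17) without kd1 replicate 2, whereas KLK4 came to 0.35 with library totals alone and to 0.85 with the correction for GC content and length.

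**Figure D4:**
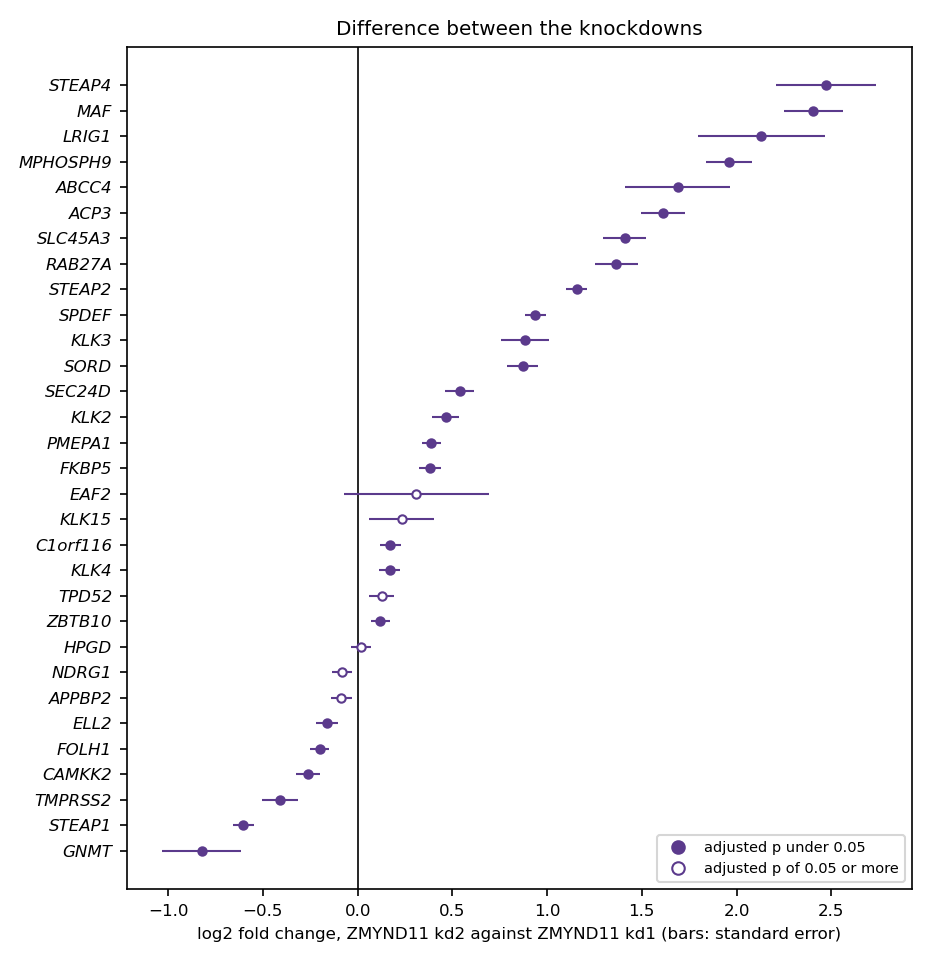
The horizontal axis is the log2 fold change of kd2 against kd1 for each of the 31 measured target genes, ordered by value, with standard errors as bars. Filled points have an adjusted p under 0.05; 19 filled points lie to the right of 0 and 6 to the left.

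Of 19 genes for cofactors of the receptor and lineage factors, 11 fell and 6 rose in kd1, and 8 fell and 9 rose in kd2, beside 39.8% lower and 38.2% higher of all genes in kd1 and 36.9% and 36.5% in kd2. The coactivators NCOA2 and NCOA3 fell 3.03-fold and 3.14-fold in kd1. The kd1 log2 fold change of NCOA2, -1.60, was -1.04 with the correction for GC content and length. In kd2 NCOA2 fell 1.32-fold, a log2 fold change of -0.40 that came to -0.20 with that correction, and NCOA3, at -0.048 on the log2 scale, was not called (edgeR adjusted p = 0.677). The chaperones of the unbound receptor, HSP90AA1 and HSP90AB1, rose 1.76-fold and 1.67-fold in kd1 and 2.01-fold and 2.22-fold in kd2, and their kd1 log2 fold changes of 0.82 and 0.74 were 0.46 and 0.38 with library totals alone. FOXA1, a pioneer factor for receptor binding, rose 1.25-fold in kd1 and 1.47-fold in kd2, and its kd1 value turned to -0.029 on the log2 scale with library totals alone. HOXB13, a homeobox factor of the prostate lineage, rose 1.40-fold in kd1, where its log2 fold change of 0.49 was 0.13 with library totals alone and turned to -0.032 with the correction for GC content and length, and fell 1.81-fold in kd2. The genes of this paragraph were chosen after their values were seen.

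**Figure D5:**
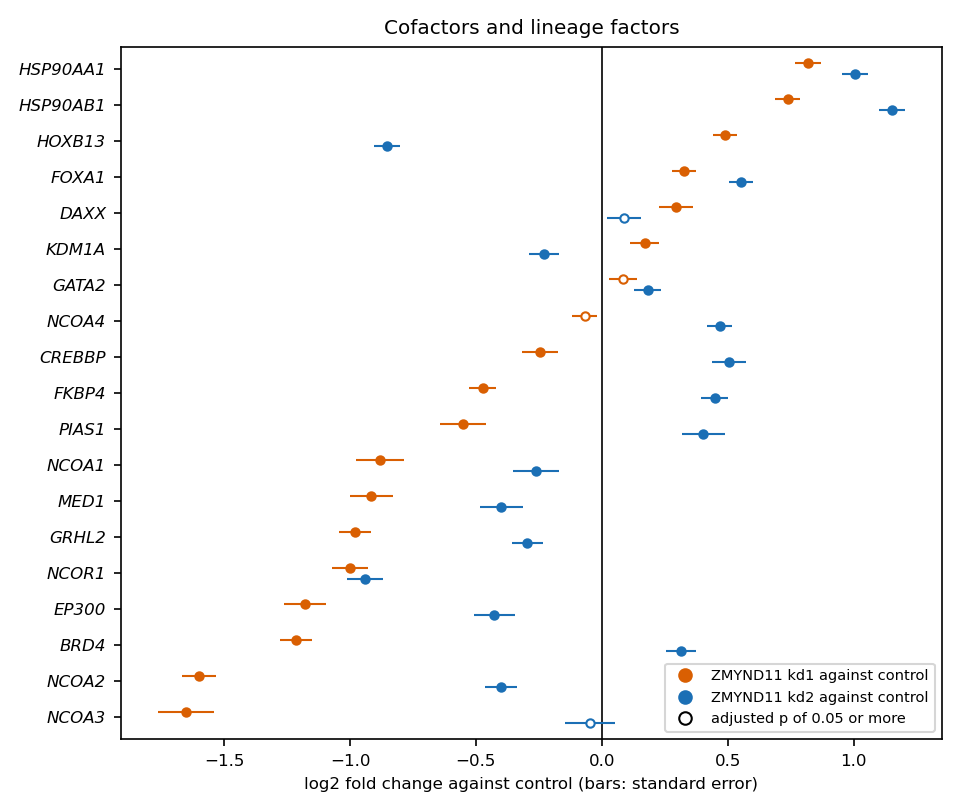
Rows are the 19 genes for cofactors of the receptor and lineage factors, and the horizontal axis is the log2 fold change against control in kd1 (orange) and kd2 (blue) with standard errors. Open points have an adjusted p of 0.05 or more; NCOA2 and NCOA3 lie far to the left in kd1, and HOXB13 lies right of 0 in kd1 and left of 0 in kd2.

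Genes that androgen is known to lower in prostate cancer cells were read as a second list. Of 6 such genes, 5 were tested, and OPRK1, with 0 to 4 counts per library, was not. All 5 fell in kd1, beside 39.8% of all genes, and 4 fell and 1 rose in kd2, beside 36.9% and 36.5%. DDC, an aromatic amino acid decarboxylase, stood at 14.8 and 14.7 CPM in control, 0.706 and 0.405 CPM in kd1 and 0.672 and 0.380 CPM in kd2, falls of 25.9-fold and 27.7-fold. MET, the hepatocyte growth factor receptor, stood at 35.2 and 30.8 CPM in control, 2.27 and 2.53 CPM in kd1 and 3.81 and 2.71 CPM in kd2, falls of 13.7-fold and 10.1-fold. BCHE, a cholinesterase, fell 4.34-fold and 13.2-fold, and UGT2B15, which conjugates androgens, fell 2.99-fold and 2.35-fold. UGT2B17, a near copy of UGT2B15 with 22 to 91 counts per library, had a log2 fold change of -0.74 in kd1 (edgeR adjusted p = 0.0448) and 0.92 in kd2 (edgeR adjusted p = 0.00675). The kd2 call was lost without control replicate 1 and in DESeq2, and the gene was named after its values were seen.

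The neighbours of the 4 kallikrein members in the kallikrein cluster were also read. Of 16 genes of the cluster, 10 were tested, of which 6 fell and 2 rose in kd1, and 6 fell and 3 rose in kd2, beside 39.8% lower and 38.2% higher of all genes in kd1 and 36.9% and 36.5% in kd2. KLK1, tissue kallikrein, stood at 31.3 and 34.0 CPM in control, 95.3 and 106 CPM in kd1 and 50.8 and 40.2 CPM in kd2, and rose 3.08-fold and 1.40-fold. Its kd1 log2 fold change of 1.62 was 0.93 with the correction for GC content and length, and its kd2 value of 0.48 was 0.27 with that correction and 0.30 without kd2 replicate 1. KLK14 stood at 1.54 and 1.71 CPM in control, 1.62 and 1.42 CPM in kd1 and 7.84 and 8.14 CPM in kd2. It rose 4.90-fold in kd2 (edgeR adjusted p = 4.4e-08) and had a log2 fold change of -0.094 in kd1 (edgeR adjusted p = 0.717), which came to -1.17 and was called with the correction for GC content and length. KLK13, with 8 to 40 counts per library, had log2 fold changes of -1.46 (edgeR adjusted p = 0.0124) and -1.69 (edgeR adjusted p = 0.00605), and these calls were lost without control replicate 1 or kd1 replicate 2 (-1.40 and -1.01) and in DESeq2 (-1.48) for kd1, and without kd2 replicate 1 (-1.25) for kd2. KLK1 was chosen after its values were seen.

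Some members can share reads with other genes. FOLH1B, a near copy of FOLH1, had 87 to 238 counts per library against 15516 to 42616 for FOLH1. SORD2P, a pseudogene of SORD, had 161 to 250 counts against 555 to 1355 for SORD, so its reads could weigh on the SORD values. KLKP1, a pseudogene of the cluster, had 279 to 573 counts, and KLK2 and KLK3 are close paralogs of each other. Whether the counting used strand was not given in the sources used here, and the exons of LRIG1 are overlapped over 37.9% of their length by SLC25A26 on the other strand, those of TMPRSS2 over 8.53% by MX1 and those of PMEPA1 over 5.98% by NKILA. SLC25A26 had 224 to 309 counts per library, MX1 160 to 487 and NKILA 117 to 243. An unnamed gene model covers 10.8% of the exon length of TPD52 on its own strand. Their part in the values above was not tested.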

How the data were processed

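RNA of 6 libraries of 22Rv1 cells was measured, and samples were grouped by their labels. The authors used FastQC 0.11.9 for read quality, AdapterRemoval for trimming, STAR 2.7.9a for alignment to hg38 and SAMtools for sorting; the submitters' processing notes also name HTSeq 0.13.5, without its mode, strand setting or annotation. Whether poly(A) selection or rRNA removal was used for these libraries was not given in the sources used here. What the authors deposited is a matrix of read counts, 1 row per gene symbol, with no normalization. Library totals of 26844128 to 38193748 set the precision of low counts.

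The counts were analysed by the quasi-likelihood method of edgeR 4.0.16 (R 4.3.3), after filterByExpr and TMM, in 1 fit of the 3 groups with 3 residual degrees of freedom, with Benjamini-Hochberg adjustment over all 16510 genes tested and a threshold of 0.05. A standard error is the absolute log2 fold change over the root of its F statistic. The script was tested on simulated data in which 200 genes were changed in each knockdown. In the real data 12882 genes were called in kd1 and 12118 in kd2. The simulation therefore cannot show how the scaling or the rate of false calls behaves with so many changes. Of 35322 symbols, 32852 matched GENCODE 44, which gave positions, exon lengths and GC content. GC content and length were known for 96.6% of genes tested. Figures were drawn with matplotlib 3.10.9. The authors' reads were not reprocessed, and splicing was not analysed.

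All target genes and ZMYND11 are named, and of 3 further lists (cofactors and lineage factors, genes that androgen lowers, the kallikrein cluster) those called at 2-fold or more in both knockdowns and the 2 largest changes of a list. A few genes of these lists and of the cell type markers are not reported here and were left out of their counts and sums. The members and lists were chosen with earlier results of these data known. Alternatives were DESeq2 1.42.0 and its size factors, library totals alone, a GC and length correction, no filter or a minimum of 10 counts per library, a replicate block, fits of each pair of groups, a test against 1.5-fold, and leaving out each library.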

Additional observations from a re-analysis of the deposited data

Results flagged for a closer look

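MAF was singled out because it was called in opposite directions in the 2 knockdowns and the difference between them was itself called. Its log2 fold change was -0.58 in kd1 and 1.82 in kd2, and kd2 exceeded kd1 by 2.40 on the log2 scale (edgeR adjusted p = 5.43e-09), with both kd1 libraries below and both kd2 libraries above the 2 controls. The difference stayed positive with library totals alone (2.59) and with the correction for GC content and length (2.15), and the kd1 call did not hold without kd1 replicate 1 (-0.40) or with that correction (-0.21).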

How the results depend on the processing

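All 11 genes lower in both knockdowns kept both calls with DESeq2's size factors, DESeq2's test, library totals alone, no filter, the filter of at least 10 counts, the replicate block and only the groups compared. SORD lost its kd2 call with the GC and length correction and in the test against 1.5-fold, where KLK15 lost both, and KLK15 lost its kd2 call without control replicate 2 or kd2 replicate 2. Of the 7 genes higher in both, KLK4, HPGD and C1orf116 lost calls with library totals alone, where C1orf116 was called lower in kd1 (edgeR adjusted p = 0.0221), and in the test against 1.5-fold, KLK4 with the GC and length correction, where it was called lower in kd1, and C1orf116 without control replicate 2 or kd1 replicate 1. The cause was not tested.

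With library totals alone, 5 target genes, 3 cofactor and 1 kallikrein gene were higher in kd1, beside 4596 of all 16510 genes. In this setting 3 target genes were lower in kd2 than in kd1, beside 4506 of all genes, and the kd1 median was -0.78. With the GC and length correction, 1 kallikrein gene was higher in kd1, beside 6474 of all 16510 genes. There 10 target genes were lower in kd2 than in kd1, beside 5830 of all genes, and the kd2 median was 0.001. In the test against 1.5-fold, 17 target genes were called in kd1, of which 4 were higher and the others lower. There 2 cofactor and 1 kallikrein gene were higher. In kd2 it called 17 target genes, of which 8 were higher and the others lower. It also called 2 cofactor, 0 androgen-lowered and 1 kallikrein gene higher in kd2, and 2 cofactor genes lower. Between the knockdowns it called 12 target, 7 cofactor, 1 androgen-lowered and 2 kallikrein genes higher in kd2, and 0 target and 1 cofactor gene lower. Of all 16510 genes this test called 8398 in kd1, 6613 in kd2 and 5397 between the knockdowns, in either direction, in place of 12882, 12118 and 11355. DESeq2 called 0 androgen-lowered genes higher in kd2.

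Over the fits that left out 1 library, the count of androgen-lowered genes higher in kd2 was 0 to 1, the kd2 median -0.071 to 0.203, and the kd1 values of EAF2 -0.101 to 0.822, PMEPA1 -0.018 to 0.058 and SEC24D -0.017 to 0.070. The kd2 values were -0.519 to 0.203 for LRIG1 and -0.225 to 0.113 for NCOA3, and kd2 less kd1 was -0.034 to 0.064 for HPGD, -0.579 to 0.380 for DDC and -0.828 to 0.513 for KLK13.

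Other signs that turned, on the log2 scale, were these. With library totals alone, kd1 values were -0.087 for KLK4, -0.064 for EAF2, -0.050 for HPGD, -0.34 for PMEPA1, -0.17 for C1orf116, -0.33 for SEC24D and -0.029 for FOXA1, the kd2 value of RAB27A was -0.036, and kd2 less kd1 was 0.024 for ELL2, 0.102 for NDRG1, 0.099 for APPBP2 and 0.085 for DDC. With the GC and length correction, kd1 values were -0.65 for KLK4, 0.25 for STEAP4, -0.062 for EAF2, -0.50 for GNMT, 0.042 for CAMKK2 and -0.032 for HOXB13, kd2 values were 0.001 for LRIG1 and 0.062 for NCOA3, and kd2 less kd1 was -0.031 for FKBP5, -0.34 for ZBTB10, -0.36 for HPGD, -0.39 for TPD52 and -0.005 for HSP90AA1. With at least 10 counts in every library, kd1 values were -0.026 for PMEPA1 and -0.019 for SEC24D.

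Library numbers did not pair the samples: the correlation of same-numbered deviations was 0.006, -0.026 and -0.044 in the 3 group pairs. With the replicate block, target genes called were 15 lower and 8 higher in kd1, 12 and 13 in kd2, and 6 and 18 between the knockdowns, androgen-lowered genes lower in kd1 were 4 in place of 5 and those higher in kd2 than in kd1 3 in place of 2, and all genes called were 12545, 11688 and 10978 in place of 12882, 12118 and 11355.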
